A study of Caenorhabditis elegans with 4 samples.

Results

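The UDP-glucuronosyltransferases of *Caenorhabditis elegans* were followed as a gene family in whole worms exposed to the cyclic dipeptide Cyclo(Pro-Tyr). Members were all rows of the raw gene count table whose locus tag carries a symbol starting with *ugt-* in the RefSeq gene table of assembly WBcel235. This gave 67 of the 21895 rows, every *ugt-* symbol of that table, by a rule that uses no measured value. The Cyclo(Pro-Tyr) group was Bristol N2, the laboratory wild type, kept for 24 h in shaken M9 buffer with 0.25 mg/mL of the compound, which is a cyclic dipeptide of proline and tyrosine. The DMSO group was N2 kept in the same way with the solvent alone. Each group had 2 libraries, made from total RNA of entire worms with a stranded kit. The study's text names embryos or L1 larvae as the worms exposed, without saying which went into these libraries. It gives an incubation at 20 °C where the labels' protocol has 19 °C. Nothing in the labels says whether replicates were separate cultures, so p-values measure the spread between these libraries, which may be technical.

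UDP-glucuronosyltransferases are membrane enzymes of the endoplasmic reticulum that move a sugar from a UDP-sugar onto a small lipophilic molecule. The product is more soluble in water and can be carried out of the cell, which is why the family is counted among the phase II enzymes of detoxification, after oxidation by cytochromes P450. In mammals the sugar is mostly glucuronic acid, whereas nematodes also attach glucose to foreign compounds. In *C. elegans*, *ugt-22* has been linked to the response to the anthelmintic albendazole, and for most other members the substrate is not stated here.

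The libraries held 52987317 and 40240674 counts in genes for Cyclo(Pro-Tyr) replicates 1 and 2, and 51202009 and 42410227 for DMSO replicates 1 and 2. Replicates differed by far more than counting noise, with a chi-square per degree of freedom of 33.9 between the Cyclo(Pro-Tyr) libraries and 23.5 between the DMSO libraries. Levels are in CPM, or counts per 1000000 counts of a library, after TMM scaling. Each member had at least 22 counts in every library, so all 67 passed the filter on low counts and none was near the limit of detection. Markers of intestine, epidermis, body wall muscle, neurons and germline were all detected, as the label of entire worms requires.

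Nearly every member was transcribed at a low to moderate level. The mean over the 4 libraries was at least 10 CPM in 41 members, at least 100 CPM in 3 and under 1 CPM in 4. Divided by the exon length in the Ensembl annotation of WBcel235, which ran from 1542 to 2909 bases, mean levels spanned 0.431 to 72.3 CPM per kb with a median of 8.91. The order of the leading genes per kb differed between the group means. In the Cyclo(Pro-Tyr) libraries *ugt-13* averaged 76.7, *ugt-18* 75.8, *ugt-46* 57.2 and *ugt-50* 51.3 CPM per kb. In the DMSO libraries *ugt-50* came first with 93.2 CPM per kb, ahead of *ugt-18* with 67.6, *ugt-13* with 45.9 and *ugt-46* with 43.5. In the treated group *ugt-13* at 86.5 and 66.9 CPM per kb lay on both sides of *ugt-18* at 75.2 and 76.4, so these genes did not differ in level beyond their spread. In the DMSO group *ugt-50* stood above all others in both libraries, at 85.8 and 100.6 CPM per kb.

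Most members that changed were higher in treated worms. At an adjusted p under 0.05 by edgeR's quasi-likelihood test, 5 of the 67 members rose and 1 fell, 6 in all. Among the 19439 tested genes of the whole table, 0.715% were called higher, 1.33% lower and 2.05% in either direction, against 7.46%, 1.49% and 8.96% of the members. The members that rose were *ugt-41*, *ugt-8*, *ugt-16*, *ugt-13* and *ugt-5*, and the member that fell was *ugt-50*. The number of calls depended on single libraries, in the whole table as well as in the family. Without DMSO replicate 1 edgeR called 0 of the 67 members and 0 of all 19748 genes tested, with 18 members and 3649 genes at an unadjusted p under 0.05. Without DMSO replicate 2 it called 0 members and 4 of 19914 genes, with 14 members and 2605 genes at an unadjusted p under 0.05. Without Cyclo(Pro-Tyr) replicate 1 edgeR called 26 members, 18 higher and 8 lower, where 21.8% of all genes were called. Without Cyclo(Pro-Tyr) replicate 2 it called 9 members, where 4.95% of all genes were called. On all 4 libraries DESeq2 called 12 members and 9.12% of all genes.

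The shift reached beyond the called members but was small for most. Of the 67 log2 fold changes of Cyclo(Pro-Tyr) over DMSO, 42 were above 0 and 25 below, and 49 were smaller than 0.5 in size. The median was 0.15, beside -0.0032 over all tested genes. Both treated libraries lay above both DMSO libraries for 31 members, or 46.3%, where 29.6% of all tested genes did so. Both treated libraries lay below both DMSO libraries for 10 members, or 14.9%, against 30.8% of all tested genes. Taken in either direction, groups without overlap made up 41 members, or 61.2%, close to the 60.5% of all tested genes. These shares are descriptions, and no test was made of the family as a whole.

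**Figure D1:**
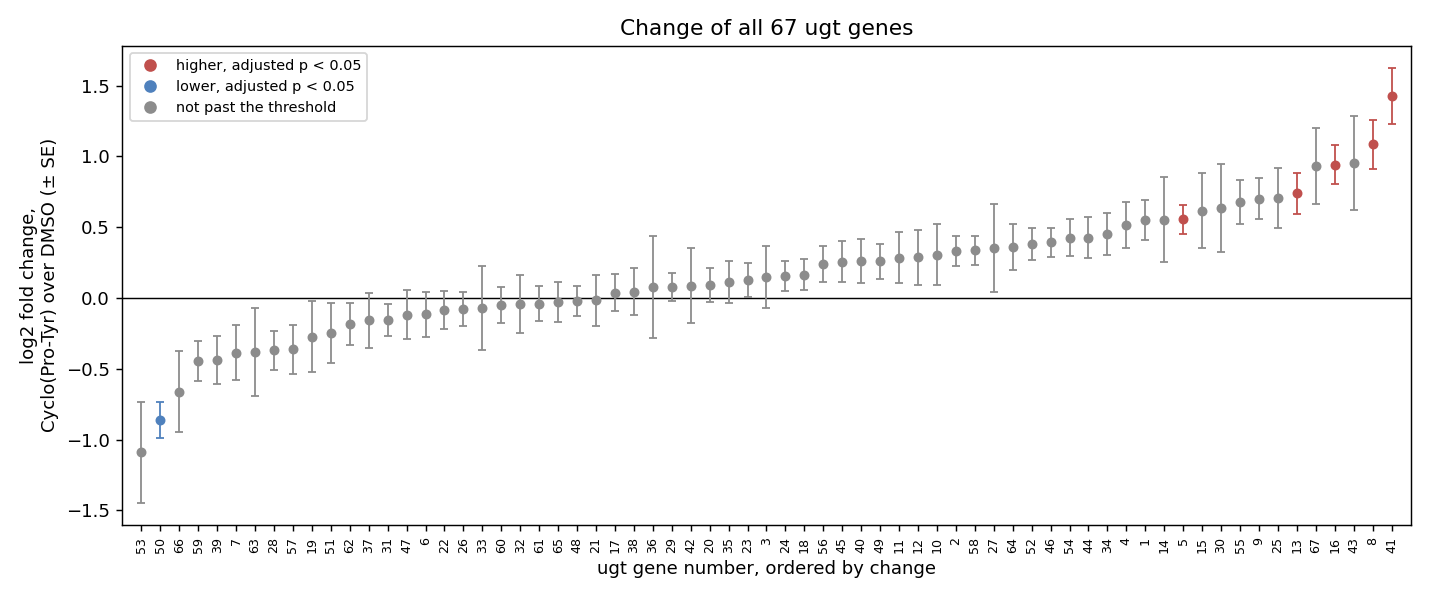
Log2 fold change of Cyclo(Pro-Tyr) over DMSO for all 67 *ugt* genes (vertical axis, with the standard error as bars), ordered from lowest to highest along the horizontal axis, where each gene is given by its number. The 5 genes called higher are red and the 1 called lower is blue, and 42 of the 67 points lie above 0.

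The largest increase was that of *ugt-41* (CELE_F10D2.11, chromosome V). Its level was 12.4 and 9.32 CPM in the Cyclo(Pro-Tyr) libraries, against 3.60 and 4.53 CPM in the DMSO libraries. Both treated libraries were more than double either DMSO library, and the groups did not overlap. This was a log2 fold change of 1.43 ± 0.20 (SE), with 0.0337 as its adjusted p in the edgeR fit.

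Next in size came *ugt-8* (CELE_H23N18.3, chromosome V), which had 6.98 and 7.71 CPM in Cyclo(Pro-Tyr) worms and 3.21 and 3.72 CPM in DMSO worms. Replicates lay close together in each group, and the groups did not overlap. The difference of 1.08 ± 0.17 (SE) on the log2 scale had 0.0363 as its edgeR adjusted p. A similar rise was found for *ugt-16* (CELE_ZC443.6, chromosome V), with 39.7 and 31.3 CPM in Cyclo(Pro-Tyr) worms against 18.1 and 18.9 CPM in DMSO worms. Here the treated libraries differed from each other by more than the DMSO libraries did, yet both stood well above them. The log2 fold change of *ugt-16* was 0.94 ± 0.14 (SE), at an edgeR adjusted p of 0.0337.

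Among the members of high level, *ugt-13* (CELE_H23N18.1, chromosome V) rose the most. It was at 140.3 and 108.5 CPM in Cyclo(Pro-Tyr) libraries, against 70.2 and 78.8 CPM in DMSO libraries. The treated values were spread more widely than the controls but did not reach them. Its log2 fold change of 0.74 ± 0.14 (SE) had an edgeR adjusted p of 0.0493, just inside the threshold. The smallest called increase was that of *ugt-5* (CELE_ZC455.6, chromosome V), at 49.7 and 47.7 CPM in Cyclo(Pro-Tyr) worms and 33.7 and 32.6 CPM in DMSO worms. Its replicates were nearly equal within each group. The log2 fold change was 0.56 ± 0.10 (SE), at an edgeR adjusted p of 0.0467. Scaling by total counts ended the calls of *ugt-13* and *ugt-5*, at edgeR adjusted p of 0.0649 and 0.0609. All 6 calls were lost under a stricter filter of 5 CPM in 2 libraries, where edgeR called 0 of the 12337 genes of the whole table, with 3736 at an unadjusted p under 0.05, and the smallest adjusted p of a member was 0.0671. Fold changes moved little there, with 1.42 for *ugt-41* and -0.87 for *ugt-50* on the log2 scale.

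The single decrease concerned *ugt-50* (CELE_T07C5.1, chromosome X), the most abundant member per kb in DMSO worms. Its level was 109.1 and 96.5 CPM in Cyclo(Pro-Tyr) libraries, against 171.7 and 201.4 CPM in DMSO libraries. Both treated libraries lay far below both controls. On the log2 scale the difference was -0.86 ± 0.13 (SE), and edgeR gave it an adjusted p of 0.0337. Exons of *ugt-50* overlap those of *nhr-26*, a nuclear hormone receptor gene, on the opposite strand, and the strand setting of the counting is not given. The counts of *nhr-26* itself were 0.526 and 0.768 CPM in Cyclo(Pro-Tyr) and 0.992 and 0.970 CPM in DMSO libraries, a small fraction of those of *ugt-50*. How reads in the shared exons were counted is not given. These values therefore cannot show how much *nhr-26* added to the counts of *ugt-50*.

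**Figure D2:**
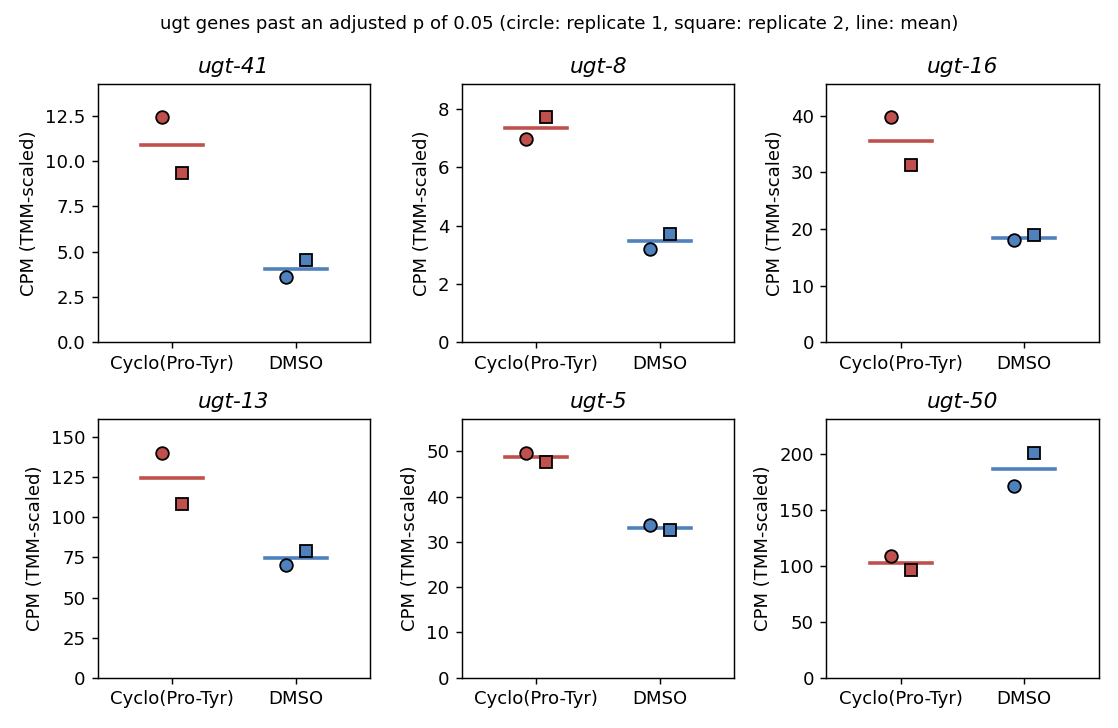
TMM-scaled CPM (vertical axis, from 0) of the 6 *ugt* genes past an adjusted p of 0.05, in Cyclo(Pro-Tyr) and DMSO worms. Circles are replicate 1, squares replicate 2 and lines the group means of 2 libraries; in no panel do the groups overlap.

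The summed level of the family was somewhat higher in treated worms. Over all 67 genes it came to 1742 and 1698 CPM in Cyclo(Pro-Tyr) libraries and 1533 and 1590 CPM in DMSO libraries. Both treated libraries lay above both DMSO libraries. As a share of the unscaled library counts, the family made up 0.1751% and 0.1647% in Cyclo(Pro-Tyr) and 0.1539% and 0.1623% in DMSO. The order was the same there, but the replicate 2 libraries lay close together. Leaving out *ugt-50*, the other 66 genes summed to 1633 and 1602 CPM in Cyclo(Pro-Tyr) against 1361 and 1389 CPM in DMSO libraries. The share of *ugt-50* in the sum was 6.26% and 5.68% in treated worms and 11.2% and 12.7% in DMSO worms. In a bulk sample of whole animals, more cells that express a gene and more RNA of it per cell cannot be told apart.

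**Figure D3:**
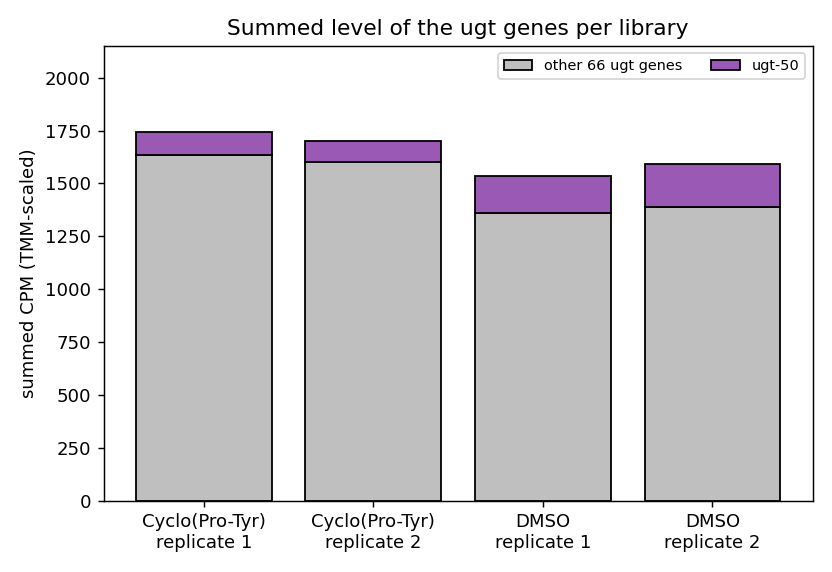
Summed TMM-scaled CPM of the *ugt* genes in each of the 4 libraries (vertical axis, from 0), split into *ugt-50* (purple) and the other 66 genes (grey). The treated libraries reach 1742 and 1698 CPM and the DMSO libraries 1533 and 1590 CPM, with a thinner *ugt-50* segment in the treated ones.

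The 8 members with the highest mean CPM held 44.5% of the summed level, and apart from *ugt-13* and *ugt-50* none of them passed the threshold. The largest of these differences was in *ugt-46*, with 161.8 and 171.0 CPM in Cyclo(Pro-Tyr) against 127.9 and 125.3 CPM in DMSO libraries. Groups of *ugt-46* did not overlap, and its log2 fold change of 0.39 ± 0.10 (SE) had an edgeR adjusted p of 0.0724. In *ugt-58* the values were 83.6 and 84.0 CPM in Cyclo(Pro-Tyr) and 68.05 and 64.7 CPM in DMSO libraries. These too stood apart, with a difference of 0.34 on the log2 scale (edgeR adjusted p 0.0893). Of the others, *ugt-49*, *ugt-18* and *ugt-23* were at 0.26, 0.16 and 0.13 on the log2 scale, and edgeR gave them adjusted p of 0.215, 0.365 and 0.516. For *ugt-62* the log2 fold change was -0.18 with an edgeR adjusted p of 0.449, and it was 0.015 without Cyclo(Pro-Tyr) replicate 2, whose value of 38.4 CPM was the lowest of the 4 libraries.

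Members of low level gave fold changes as large as the called ones but with wider errors. For *ugt-43* the values were 1.82 and 3.18 CPM in Cyclo(Pro-Tyr) and 1.07 and 1.48 CPM in DMSO libraries, a log2 fold change of 0.96 ± 0.33 (SE) with an edgeR adjusted p of 0.121. For *ugt-67* they were 2.31 and 2.33 CPM in Cyclo(Pro-Tyr) and 0.973 and 1.48 CPM in DMSO libraries, a log2 fold change of 0.93 ± 0.27 (SE) with an edgeR adjusted p of 0.0837. In both genes all treated values exceeded all controls. The 49 members that the naming rule did not pick had log2 fold changes between -0.39 and 0.71, and their smallest edgeR adjusted p was 0.0537. At an adjusted p under 0.1 by edgeR, 14 members were higher and 1 lower, beside 6.08% and 7.61% of all tested genes.

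On the low side, the gene with the most negative estimate was *ugt-53*. Its level was 2.93 and 1.13 CPM in Cyclo(Pro-Tyr) libraries, against 4.44 and 4.48 CPM in DMSO libraries. Cyclo(Pro-Tyr) replicate 1 was more than double replicate 2 while the controls were nearly equal, and the log2 fold change of -1.09 ± 0.36 (SE) had an edgeR adjusted p of 0.108. That value was -1.98 without Cyclo(Pro-Tyr) replicate 1, where edgeR gave an adjusted p of 1.06e-06, and -0.60 without Cyclo(Pro-Tyr) replicate 2, where it gave 0.166. DESeq2 on all 4 libraries called *ugt-53*, at an adjusted p of 0.0418. In *ugt-66* Cyclo(Pro-Tyr) worms had 5.43 and 2.997 CPM and DMSO worms 5.70 and 7.85 CPM, with Cyclo(Pro-Tyr) replicate 1 close to DMSO replicate 1. The log2 difference was -0.66 ± 0.29 (SE), at an edgeR adjusted p of 0.183. Leaving out Cyclo(Pro-Tyr) replicate 1 gave -1.17 at an edgeR adjusted p of 2.40e-04, and leaving out Cyclo(Pro-Tyr) replicate 2 gave -0.31 at 0.489. Both *ugt-59* and *ugt-39* were near -0.44 on the log2 scale, at edgeR adjusted p of 0.105 and 0.150. Exons of *ugt-59* overlap *sir-2.1* on the opposite strand, a gene at 83.9 and 81.7 CPM in Cyclo(Pro-Tyr) and 74.7 and 83.8 CPM in DMSO libraries.

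The spread between replicates was larger in treated worms. Over the 67 members the median absolute difference between replicates was 0.22 on the log2 scale in Cyclo(Pro-Tyr) and 0.13 in DMSO. A gap above 0.5 was found for 14 members between the Cyclo(Pro-Tyr) libraries and for 2 between the DMSO libraries. The direction of the gap was not shared, since 35 members were higher in Cyclo(Pro-Tyr) replicate 1 and the rest in replicate 2. The whole table showed the same order, with an SD of replicate differences in log2 CPM of 0.42 in Cyclo(Pro-Tyr) and 0.35 in DMSO over the 19439 tested genes.

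Many members lie next to each other in the genome. In the RefSeq gene order of WBcel235, 42 members lie on chromosome V, 12 on IV, 5 on I, 4 on X, 3 on III and 1 on II. A total of 31 members sit in 10 runs, in which a *ugt* gene directly follows another with no other protein-coding gene starting between them. The called increases *ugt-8*, *ugt-13*, *ugt-16* and *ugt-5* were in such runs. Over all tested genes, groups without overlap made up 29.6% higher and 30.8% lower. In runs, both treated libraries lay above both controls for 21 of 31 members and below for 1, with a median log2 fold change of 0.35. Outside runs these numbers were 10 and 9 of 36 members, with a median of -0.026, counts close to the shares over all tested genes. On chromosome V 21 of 42 members lay above the controls and 4 below, and on the other chromosomes 10 of 25 above and 6 below. Chromosome V holds the longest run, so these counts share members with those of the runs. Shares over all tested genes of each chromosome are not given here. The difference between members in runs and outside them was not tested.

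The longest run holds 7 genes, in the order *ugt-11*, *ugt-9*, *ugt-10*, *ugt-67*, *ugt-8*, *ugt-14* and *ugt-13*, named here for their place. All 7 had log2 fold changes above 0, from 0.29 to 1.08 with a median of 0.70, and 2 were called higher. Their mean levels differed widely, from 1.65 to 99.4 CPM. In the run of *ugt-18*, *ugt-16* and *ugt-15* all 3 genes lay above the controls in both treated libraries, with log2 fold changes from 0.16 to 0.94. The run of *ugt-5*, *ugt-4*, *ugt-6* and *ugt-3* was mixed, from -0.12 to 0.56, with 2 genes above the controls. In the run of *ugt-26*, *ugt-27*, *ugt-28* and *ugt-25* on chromosome I changes ran from -0.37 to 0.71, the widest range of the 10 runs, and 2 of the 4 lay above the controls and 1 below. The gene with the largest increase, *ugt-41*, is in no run but has *ugt-39* and *ugt-36* on its sides, each with 1 other protein-coding gene between. Its neighbour *ugt-39* was at 12.2 and 11.6 CPM in Cyclo(Pro-Tyr) against 13.5 and 18.7 CPM in DMSO libraries, on the other side of 0 from *ugt-41*.

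**Figure D4:**
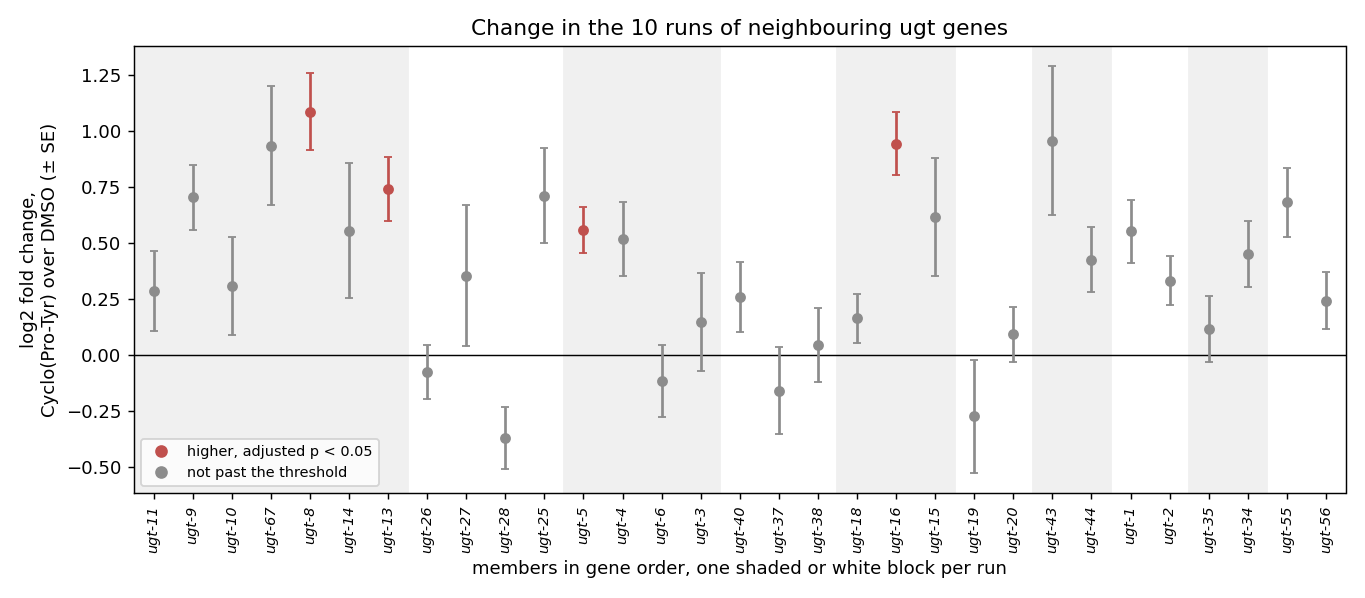
Log2 fold change of Cyclo(Pro-Tyr) over DMSO (vertical axis, with the standard error as bars) for the 31 *ugt* genes in 10 runs of neighbours, in gene order along the horizontal axis, with shaded and white blocks marking the runs. All 7 genes of the longest run, at the left, lie above 0, and the run of *ugt-26*, *ugt-27*, *ugt-28* and *ugt-25* lies on both sides of it.

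Counts of some members are uncertain because exons overlap. In the Ensembl annotation 11 members overlap another gene on the opposite strand and 3 on the same strand, 14 in all. Of the called genes only *ugt-50* is among them. Another is *ugt-22*, the gene linked to albendazole, which overlaps *srz-29* on the opposite strand. Its log2 fold change was -0.085, at an edgeR adjusted p of 0.722, and its groups overlapped. The neighbours *ugt-40* and *ugt-37* overlap each other on the same strand, and their log2 fold changes were 0.26 and -0.16. How reads that match several related members were divided is not given in the sources used here.

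The co-substrate of these enzymes is made by other genes. No gene of a list drawn up around UDP-sugars passed the threshold, where 2.05% of all tested genes did. The list held 22 genes that make, move or use UDP-sugars, of which all but *glct-1* passed the filter, leaving 21. By edgeR 7 of these had an unadjusted p under 0.05, beside 5301 of all 19439 tested genes. DESeq2 called 3 of the 21, and 9.12% of all genes. Both treated libraries lay above both controls for 6 of the 21 and below for 9, where 29.6% and 30.8% of all tested genes did so. The median log2 fold change of the list was -0.037. The list joins genes that make or move UDP-sugars with genes that use them. Its counts and median therefore do not describe the supply of the co-substrate by itself. The gene with the smallest p was *sqv-4*, which encodes UDP-glucose dehydrogenase, the enzyme that makes UDP-glucuronic acid. It was at 33.2 and 21.5 CPM in Cyclo(Pro-Tyr) libraries, against 45.4 and 54.3 CPM in DMSO libraries, with no overlap between groups. Its log2 fold change of -0.86 ± 0.20 (SE) had an edgeR adjusted p of 0.0604, and its exons overlap *tut-2* on the opposite strand. The UDP-galactose epimerase gene *gale-1* had 26.7 and 22.1 CPM in Cyclo(Pro-Tyr) and 33.7 and 35.9 CPM in DMSO worms, a log2 fold change of -0.51 ± 0.13 (SE) with an edgeR adjusted p of 0.0676.

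Among 25 genes listed as possible regulators of responses to foreign compounds and stress, 2 were called higher by edgeR and none lower. Over all tested genes, 0.715% were called higher and 1.33% lower. The FOXO factor *daf-16*, the target of insulin signalling, was at 231.9 and 258.3 CPM in Cyclo(Pro-Tyr) libraries, against 141.9 and 150.1 CPM in DMSO libraries. This difference was 0.75 ± 0.11 (SE) on the log2 scale and had 0.0355 as its edgeR adjusted p. Exons of *daf-16* overlap H36N01.5 on the opposite strand. Expression of *nhr-48*, which encodes a nuclear hormone receptor, was 99.7 and 101.3 CPM in Cyclo(Pro-Tyr) worms and 67.8 and 72.0 CPM in DMSO worms. The log2 fold change of *nhr-48* was 0.52 ± 0.10 (SE), at an edgeR adjusted p of 0.0491. In the fits without 1 library, whose calls over all genes are given above, edgeR called 8 of the 25 when Cyclo(Pro-Tyr) replicate 1 was left out, 4 when replicate 2 was, and 0 without either DMSO library. Both treated libraries lay above both controls for 15 of the 25 and below for 4, where 29.6% and 30.8% of all tested genes did so. The median log2 fold change of the 25 was 0.22. The list was not sorted by whether a gene raises or lowers such responses, so these counts and this median give no direction of a response. These were changes in transcript level, and the activity of the regulators was not measured.

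Markers of tissues and of the moult were read beside these results. The summed level of 8 intestinal markers was 7672 and 8963 CPM in Cyclo(Pro-Tyr) and 9548 and 8191 CPM in DMSO libraries, with overlapping groups. Most of this sum was *asp-1*, at 4850 and 5897 CPM in Cyclo(Pro-Tyr) and 6446 and 5330 CPM in DMSO libraries. Single intestinal markers went both ways, with 3 of the 8 higher without overlap and 1 lower. Among the higher was *ges-1*, at 0.67 on the log2 scale, and the lower was *act-5*, at -0.53. The 6 neuronal markers summed to 1918 and 2173 CPM in Cyclo(Pro-Tyr) against 1533 and 1558 CPM in DMSO libraries. The largest part was *egl-3*, at 1050 and 1264 CPM in Cyclo(Pro-Tyr) and 767.3 and 787.1 CPM in DMSO libraries. Of the 6, 5 were higher without overlap, while *snb-1* overlapped, at -0.014 on the log2 scale. Sums of the 4 muscle markers were 11253 and 11140 CPM in Cyclo(Pro-Tyr) and 8886 and 10307 CPM in DMSO libraries. Most of this was *unc-54*, at 6424 and 6019 CPM in Cyclo(Pro-Tyr) and 4595 and 5624 CPM in DMSO libraries. Of the 4, 2 were higher without overlap, while *myo-3* and *lev-11* overlapped, at 0.086 and -0.023 on the log2 scale. Sums of the 6 germline markers ran from 116.5 to 122.6 CPM in Cyclo(Pro-Tyr) and from 120.6 to 121.3 CPM in DMSO libraries. The 6 epidermal markers summed to 587.05 and 242.7 CPM in Cyclo(Pro-Tyr) and 951.4 and 1138 CPM in DMSO libraries. The 6 moulting genes summed to 468.8 and 186.9 CPM in Cyclo(Pro-Tyr) and 560.8 and 803.1 CPM in DMSO libraries. Epidermal and moulting sums were thus lower in treated libraries, most of all in replicate 2. Most of the epidermal sum was *sqt-3*, at 381.8 and 125.9 CPM in Cyclo(Pro-Tyr) and 676.3 and 817.6 CPM in DMSO libraries. Single epidermal markers went both ways, with 5 of the 6 lower without overlap and *elt-3* higher without overlap, at 0.14 on the log2 scale. Of the *ugt* genes, 35 of 67 were lower in Cyclo(Pro-Tyr) replicate 2 than in replicate 1, and the rest were higher. The share over all tested genes is not given here. Of the called genes, *ugt-41*, *ugt-16*, *ugt-13* and *ugt-50* were lower in replicate 2. So was *ugt-5*, but only slightly, at 49.7 and 47.7 CPM in replicates 1 and 2. The called *ugt-8* was higher in replicate 2, at 6.98 and 7.71 CPM. None of the 36 genes of these 6 lists was at 0. By edgeR 0 of them were called, where 2.05% of all tested genes were. An unadjusted p under 0.05 by edgeR was found for 14 of the 36, beside 5301 of all 19439 tested genes. DESeq2 called 3 of the 36, and 9.12% of all genes. Of 3 listed markers of sensory glia 2 were tested and edgeR called 0, with *ptr-10* at -1.04 and *vap-1* at 0.39 on the log2 scale. The part of these markers in the changes of the *ugt* genes was not tested.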

How the data were processed

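The deposited table holds raw counts per gene, with no normalisation by the authors visible in the values, 1 column for each library. Bowtie2 and SAMtools are named in the submitters' processing notes. Not given in the sources used here are the counting tool, genome build, annotation, strand setting and the treatment of reads that match several genes, so no coordinates are printed. Columns were matched to libraries by treatment and replicate number; the titles set the replicate, since a treatment label repeats the words of replicate 1. Of 21895 rows, 21890 matched the RefSeq table, all 67 members among them.

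Genes were tested with edgeR 4.0.16 (R 4.3.3) by the quasi-likelihood test over the 19439 genes kept by filterByExpr, with TMM scaling, treatment as the only term and Benjamini-Hochberg adjustment over all tested genes. Standard errors are the log2 fold change divided by the square root of F. The fit was tested on simulated data. Members named are those past the threshold of 0.05, the 8 of highest mean CPM, and the 5 highest and 5 lowest log2 fold changes at a mean of at least 1 CPM. Other members are named for their position or overlap. In each list the called genes and the 2 of smallest p are named. Members, lists, tests and alternatives were chosen with earlier results of these data known. Alternatives used DESeq2 1.42.0 and limma 3.58.1.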

Additional observations from a re-analysis of the deposited data

How the results depend on the processing

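The main count was 6 members past the threshold, 5 higher and 1 lower. It stayed within 1.5 times under DESeq2 size factors, no filter, limma-voom and the legacy and robust edgeR fits, and the same 6 genes were called under DESeq2 size factors, no filter and limma-voom. Those fits called from 1.49% to 2.80% of all genes, beside 2.05% in the main fit. Upper-quartile scaling called 7 members higher and 1 lower, where 4.33% of all genes were called. Total counts gave 3 higher and 1 lower, where 1.11% of all genes were called. The filter of 5 CPM in 2 libraries gave 0 in all, 0 higher and 0 lower, and 0 of all 12337 genes tested, with 21 of 54 members tested at an unadjusted p under 0.05. DESeq2's Wald test gave 12, with 10 higher and 2 lower, where 9.12% of all genes were called. A threshold of 0.1 gave 15, with 14 higher, where 6.08% of all tested genes were higher and 7.61% lower. A threshold of 0.01 gave 0 members in all, 0 higher and 0 lower. Of the 6 called genes, 5 have no exon overlap with another gene. Leaving out each library in turn gave from 0 to 26 members, from 0 to 18 higher and from 0 to 8 lower. In these fits the variance comes from the group that keeps both libraries, and its prior degrees of freedom differed widely, at 63.1 and 48.4 when Cyclo(Pro-Tyr) replicate 1 or 2 was left out and 4.93 and 5.06 when DMSO replicate 1 or 2 was.

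Whether the replicate numbers pair the libraries is not stated in the labels. The correlation between the deviations of same-numbered libraries was -0.20. With 2 libraries per group both pairs give this same value, so it cannot show whether same-numbered libraries shared a culture or day. With the replicate block edgeR called 3 members, 3 higher and 0 lower, where 1.14% of all genes were called. These were *ugt-41*, *ugt-8* and *ugt-16*, while *ugt-50*, *ugt-13* and *ugt-5* had edgeR adjusted p of 0.0506, 0.0689 and 0.0851 there. A crossed replicate block, added after the data were seen, called 24, with 18 higher and 6 lower, where 23.6% of all genes were called.

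The median log2 fold change of the members, 0.15, was above 0 under every alternative run. It was 0.17 with upper-quartile scaling, 0.12 with total counts, 0.11 under the 5 CPM filter, and from 0.14 to 0.20 without each library in turn. Without Cyclo(Pro-Tyr) replicate 1 edgeR also called *ugt-46*, *ugt-62*, *ugt-49*, *ugt-43*, *ugt-67*, *ugt-53* and *ugt-66*. Of the named members *ugt-62* alone changed sign, with values from -0.41 to 0.015 when each library was left out.

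The UDP-sugar list had 0 calls, with 1 under upper-quartile scaling, 3 by DESeq2 and from 0 to 3 without each library. The regulator list had 2, with 4 under upper-quartile scaling, 1 with total counts, 0 under the 5 CPM filter, 1 with the legacy fit, 0 with the replicate block, 7 by DESeq2 and from 0 to 8 without each library. The shares of all genes called, given above, also differed between these fits. What caused these shifts was not tested.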
